A study of Mus musculus with 23 samples.

Results

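Among 18193 genes on the arrays, 71 were lower in sorted early germ cells of Spo11-/- mice than in each wild-type array of the same fraction while having their highest wild-type level in an early fraction. They were selected on their measured levels, each taken from the gene's brightest wild-type probe set. In spermatogonia, in pre-leptotene and in leptotene/zygotene spermatocytes alike, the Spo11-/- array had to lie at least 0.7 (log2) below the lowest wild-type array. The highest wild-type fraction mean had to fall in 1 of these 3 fractions, and the pre-leptotene mean could be at most 1 below that of spermatogonia. The distance alone was met by 677 genes (3.72% of all), of which 548 peaked in a later fraction and 58 of the other 129 failed the pre-leptotene condition. The differences between genotypes described here are therefore those that chose the genes, and no test is attached to them. A limma fit of the genotype over the 3 fractions called 10% of 11980 genes lower, all 71 among them, and nothing is read from that.

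Male germ cells had been stained with the DNA dye Hoechst, separated in a cell sorter by stage, and their RNA measured on 23 Affymetrix arrays. Wild-type cells were of F1 males of C57BL/6J and DBA/2J mice, 10 to 16 weeks of age, with 20 arrays. Spermatogonia and round spermatids had 4 arrays each, pre-leptotene and leptotene/zygotene 3 each, mid-pachytene and diplotene 2 each, and early and late pachytene 1 each. The Spo11-/- males had the same age range, and their cells, combined over 2 collections, gave 1 array for each of the 3 early fractions. Because the labels give no strain for the Spo11-/- mice, genotype and strain cannot be told apart. With 1 Spo11-/- array a fraction, no spread between Spo11-/- samples was measured. RNA was taken from sorted bulk cells, so fewer cells of a type and less RNA per cell cannot be told apart.

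Spermatogonia are the dividing germ cells that renew themselves or enter meiosis. Pre-leptotene cells replicate their DNA, and in leptotene and zygotene SPO11 cuts the DNA so that homologous chromosomes can pair and recombine. Without SPO11 the chromosomes do not synapse properly and spermatocytes are lost before they form spermatids, so the testis of such mice lacks the later germ cells that surround the early ones in wild type.

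Levels are log2 of the deposited intensity plus 1, and changes are differences on that scale. The arrays had median intensities of 10.63 to 12.56. A level below 4 was taken as not above background. Spo11 itself had 1 probe set, at 4.60 to 6.69 in wild-type spermatogonia, 4.61 to 7.03 in pre-leptotene and 7.42 to 8.95 in leptotene/zygotene. The Spo11-/- arrays gave 4.30, 4.80 and 5.21, below all wild-type arrays in the first and the last fraction and within their range in pre-leptotene. Over all genes the median difference between the Spo11-/- array and the wild-type mean was 0.02, -0.03 and 0.05 in the 3 fractions in that order.

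Other cell types differed between the arrays, as the plot of summed gene list levels shows. The summed intensity of 29 spermatid genes was 32376 to 346315 in the 10 early wild-type arrays and 995 to 1480 in the 3 Spo11-/- arrays, and 22 of these genes met the distance rule in all 3 fractions. In the Spo11-/- pre-leptotene array the sum over 13 T cell markers was 10968, against 94 to 109 in wild-type pre-leptotene, with 12 of the 13 at log2 4 or more. The same array had 32495 for 22 Sertoli cell markers (wild-type pre-leptotene 8968 to 14958) and 15303 for 18 macrophage and leukocyte markers (217 to 3159). In the other Spo11-/- arrays the T cell sums were 259 and 99, beside 128 to 534 and 91 to 100 in the matching wild-type arrays. In Spo11-/- leptotene/zygotene the Sertoli cell sum was 20738 (wild type 13436 to 19742) and the median marker level 6.81 (5.85 to 6.06). The Spo11-/- spermatogonia array was lower than wild type for other markers, with sums of 438 for 15 peritubular and stromal genes (wild type 1636 to 20375) and 253 for the macrophage and leukocyte genes (2781 to 9463). Of these lists 9 of 15 and 8 of 18 genes lay below every wild-type spermatogonia array. The sum of 20 late prophase genes was 2966 to 3892 in the 3 Spo11-/- arrays and 6843 to 77300 in the early wild-type arrays, and 13 of the 20 met the distance rule in all 3 fractions. The part of these other cells in the levels of the 71 genes was not tested.

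**Figure D1:**
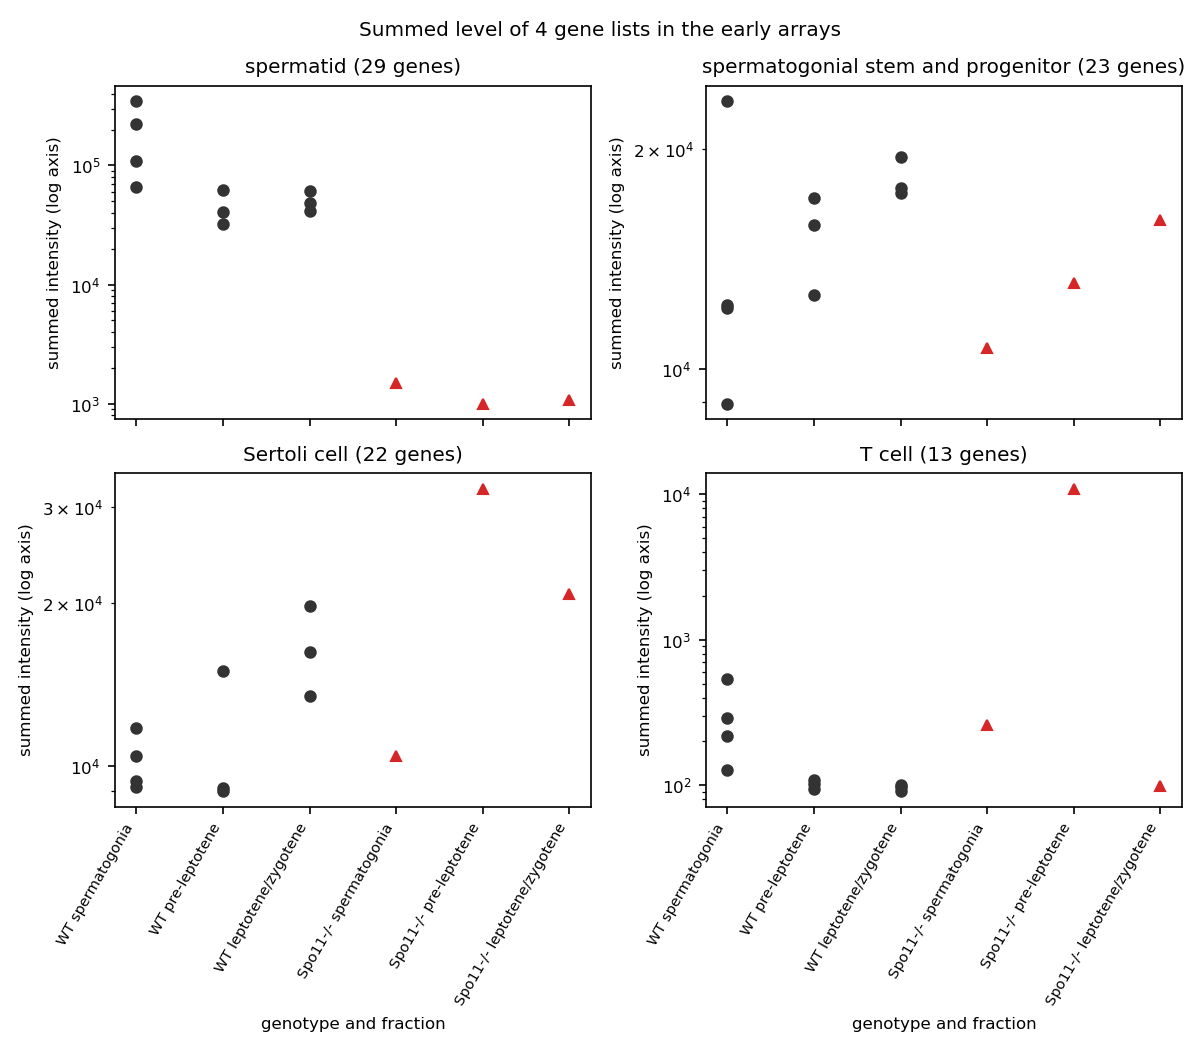
Summed intensity (log axis) of 4 gene lists in each early array, with wild-type arrays as black points and Spo11-/- arrays as red triangles. The spermatid sum lies between 995 and 1480 in Spo11-/- arrays and at 32376 or more in wild type, and the T cell sum reaches 10968 in the Spo11-/- pre-leptotene array alone.

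Of the 71 genes, 70 encode proteins and 1 is a long noncoding RNA, and 3 are X-linked (Cdk16, Foxo4 and Shroom4) where 617 of the 18031 placed genes are. Their wild-type maxima were early, as the rule asked: 8 were in spermatogonia, 29 in pre-leptotene and 34 in leptotene/zygotene. Some of the genes were also high later, and 10 had a round spermatid mean within 1 of their maximum. Among these was Prm1, the protamine gene that packs sperm DNA, which is described last. Only 4 genes belonged to any of 29 lists of stages, processes and cell types: Gfra1 and Lin28a (2 of 23 spermatogonial stem and progenitor genes), Ddit4 (1 of 25 immediate early and stress genes) and Prm1 (1 of 29 spermatid genes). Lists of DNA replication (30 genes), the mitotic cell cycle (29), break formation (7), the synaptonemal complex (13) and strand exchange (20) held 0. With 71 members among 18193 genes, counts of 0 in lists of this size are near the overall share, and nothing is read from them. The role groups used below, and some genes named in them for their role, were chosen after the values were seen.

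Sequences upstream of the transcription start are shown for the gene with the highest level besides Prm1 and Rad23b (Prmt1), both genes of the spermatogonial list, a gene with steady levels in the early wild-type arrays (Aunip) and Prm1. The windows were taken from RefSeq on GRCm38.p6, 5′ to 3′ on the gene's strand, and end at the base before the start. Capitals mark matches on either strand to any of 14 searched motifs, spelled out after the sequences.
Lin28a, chr4:134018817-134019066 (minus strand): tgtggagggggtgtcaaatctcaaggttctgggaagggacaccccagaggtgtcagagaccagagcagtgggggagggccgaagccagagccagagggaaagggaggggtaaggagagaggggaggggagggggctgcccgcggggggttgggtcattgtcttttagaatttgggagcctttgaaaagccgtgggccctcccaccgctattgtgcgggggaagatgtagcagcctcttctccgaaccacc
Gfra1, chr19:58455399-58455648 (minus strand): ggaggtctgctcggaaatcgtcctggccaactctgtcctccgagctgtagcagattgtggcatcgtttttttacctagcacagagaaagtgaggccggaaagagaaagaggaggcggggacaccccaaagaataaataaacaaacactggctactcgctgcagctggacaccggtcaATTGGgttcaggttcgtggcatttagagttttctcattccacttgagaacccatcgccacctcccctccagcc
Prmt1, chr7:44986421-44986670 (minus strand): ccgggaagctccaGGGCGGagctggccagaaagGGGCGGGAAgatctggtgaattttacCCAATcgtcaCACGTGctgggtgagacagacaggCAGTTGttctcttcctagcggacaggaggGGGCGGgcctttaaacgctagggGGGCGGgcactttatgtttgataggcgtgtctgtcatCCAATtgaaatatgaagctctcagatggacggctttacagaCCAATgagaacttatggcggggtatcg
Aunip, chr4:134510749-134510998 (plus strand): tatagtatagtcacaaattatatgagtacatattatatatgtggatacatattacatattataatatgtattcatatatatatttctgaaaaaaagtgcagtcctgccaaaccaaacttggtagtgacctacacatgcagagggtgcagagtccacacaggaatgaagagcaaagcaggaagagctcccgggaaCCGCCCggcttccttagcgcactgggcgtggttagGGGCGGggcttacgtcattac
Prm1, chr16:10796824-10797073 (minus strand): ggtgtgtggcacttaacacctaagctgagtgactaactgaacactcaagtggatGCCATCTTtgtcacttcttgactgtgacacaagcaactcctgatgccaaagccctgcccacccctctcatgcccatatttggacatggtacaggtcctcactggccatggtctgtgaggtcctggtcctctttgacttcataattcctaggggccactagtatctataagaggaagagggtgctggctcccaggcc
Prmt1 held 4 GC boxes (letters GGGCGG), of which 1 overlapped a match to an E2F site (letters TTCCCGCC). It also held 3 matches to the CCAAT box, 1 to the E-box (letters CACGTG) and 1 to the MYB site (letters CAACTG), and 13 CpG pairs in the window. In the 250 bases shown Aunip held 2 GC boxes, Gfra1 1 CCAAT box read on the other strand, and Lin28a 0 of the 14 motifs. In Prm1 the only match was 1 YY1 site (letters AAGATGGC), and its window held 0 CpG pairs. A RefSeq window of 300 bases, 250 before the start and 50 after, was listed for 55 of the 71 genes (70 windows). The shares and medians that follow are of these longer windows. There Lin28a held a GC box, and Prmt1 and Prm1 held 17 and 1 CpG pairs. The GC box was in 75.7% of these windows and in 52.4% of all 18006. The NRF1 site (letters TGCGCA) was in 20% against 11.0%, CCAAT in 28.6% against 37.4%, and the E-box in 7.14% against 8.74%. The motifs not named so far were the CRE site (letters TGACGTCA), the TATA box (letters TATAAA), another form of the E2F site (letters TTTCGCGC), the ETS site (letters CCGGAAGT), the STRA8 site (letters CNCCTCAG), the DMRT core (letters ACATTGT) and the AP-1 site (letters TGANTCA). Each was in 0% to 5.71% of the windows of the 71 genes and in 0.483% to 9.75% of all windows. The median window of the 71 genes held 21 CpG pairs and 63.8% G or C, against 16 and 58.3% over all windows. These are matches of letters and say nothing about binding.

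The size of the Spo11-/- difference varied among the genes and between fractions. The wild-type mean exceeded the Spo11-/- array by a median of 2.04 in spermatogonia, 2.45 in pre-leptotene and 1.68 in leptotene/zygotene, with lowest values of 0.96, 1.28 and 0.91. The pre-leptotene difference was the largest of the 3 for 49 genes, the spermatogonial one for 20 and the leptotene/zygotene one for 2, Ddit4 and Sort1. It was smallest in leptotene/zygotene for 47. The Spo11-/- pre-leptotene array is also the one with raised T cell markers. Sertoli cell markers were above wild type in it and in the Spo11-/- leptotene/zygotene array. In 54 of the 71 genes all 10 early wild-type arrays lay above all 3 Spo11-/- arrays, also across fractions, as they did in 1217 genes of all. Of the 71, 20 were not above background in at least 1 Spo11-/- array and 3 (Prm1, Zbtb12 and Irx3) in all 3. Where a Spo11-/- array was below 4, differences are given to its measured value, and only the part above 4 is above background.

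**Figure D2:**
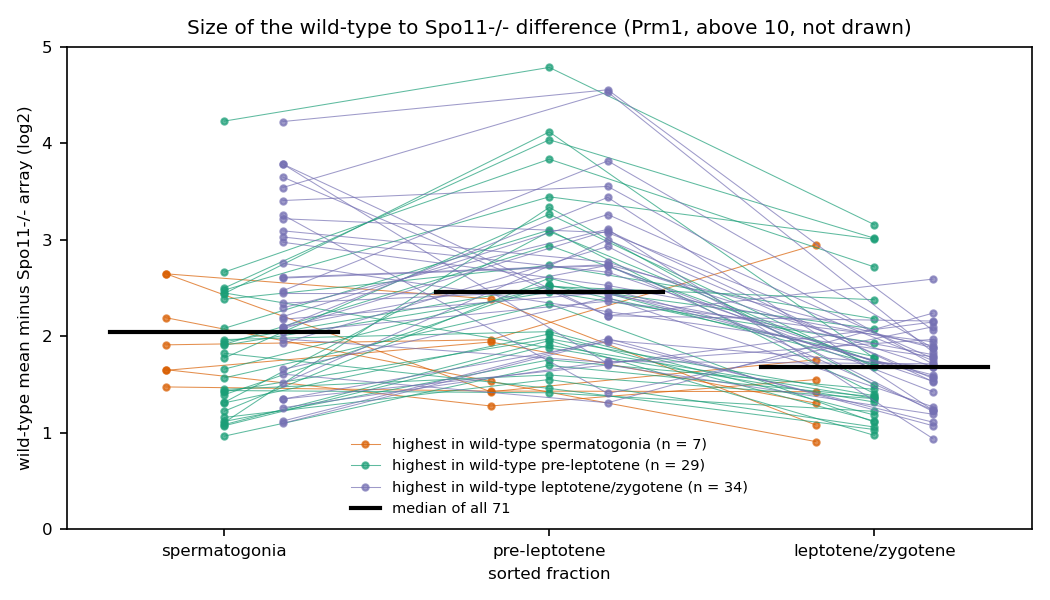
Wild-type mean minus the Spo11-/- array (log2) in each early fraction for 70 genes, lines joining the values of a gene and colours giving the fraction of its highest wild-type mean; Prm1, above 10, is not drawn. The black bars, medians of all 71 genes, stand at 2.04, 2.45 and 1.68.

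The spermatogonial pair, Lin28a and Gfra1, was separated in all 3 fractions because the rule asked for it. Both genes had their highest wild-type mean in leptotene/zygotene and not in spermatogonia. The means were 10.49 against 9.20 for Lin28a and 6.91 against 6.59 for Gfra1. Lin28a encodes an RNA-binding protein that blocks let-7 microRNA maturation and marks undifferentiated spermatogonia. Its levels were 9.84, 8.06, 7.92 and 11.01 in the 4 wild-type spermatogonia arrays, 10.63, 8.59 and 9.62 in pre-leptotene and 10.56, 10.38 and 10.55 in leptotene/zygotene. The Spo11-/- arrays gave 5.66, 5.08 and 8.66. The wild-type mean was 3.54, 4.53 and 1.84 higher in the 3 fractions, so that the Spo11-/- leptotene/zygotene array stood apart from the other Spo11-/- arrays and above some early wild-type arrays of other fractions.

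Gfra1 encodes the receptor for GDNF, the factor that keeps spermatogonial stem cells. It was at 6.86, 5.71, 6.25 and 7.54 in wild-type spermatogonia, 6.76, 5.13 and 6.44 in pre-leptotene and 6.87, 6.86 and 7.0 in leptotene/zygotene. The Spo11-/- arrays gave 3.62 and 3.58, both not above background, and 5.01 in leptotene/zygotene, below every early wild-type array. Id4, of the same list, met the distance rule but peaked in late pachytene and is no member. The other 20 listed genes did not meet it: Sall4 lay at 9.83, 9.10 and 10.83 in Spo11-/- against wild-type means of 10.16, 10.48 and 10.84, and Uchl1 at 12.13, 11.69 and 12.77 against 12.41, 12.57 and 12.85. The summed level of the 23 genes was 10692 in Spo11-/- spermatogonia (wild type 8951 to 23289) and 13110 in pre-leptotene (12629 to 17178), within the wild-type range in both. In leptotene/zygotene it was 16018, below the wild-type range of 17423 to 19509. The median level of the list lay below every wild-type array in all 3 fractions, at 5.06 against 6.02 to 8.08, 5.51 against 6.08 to 6.76 and 6.04 against 7.10 to 7.39. The median over its genes of the Spo11-/- array minus the wild-type mean was -0.32, -0.39 and -0.37. The Spo11-/- pre-leptotene sum includes Thy1, which T cells also express, at 11.83 against a wild-type mean of 2.61.

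RNA binding and processing counted 7 genes, with median differences of 1.94, 2.53 and 1.74. Prmt1, the main arginine methyltransferase of nuclear RNA-binding proteins, was nearly level across the early wild-type arrays at 11.73 to 11.98 in spermatogonia, 12.10 to 12.38 in pre-leptotene and 11.87 to 12.10 in leptotene/zygotene. The Spo11-/- arrays gave 9.89, 9.27 and 10.24. Its wild-type SDs were 0.12, 0.15 and 0.12. The smallest distance of Prmt1, 1.63, is a value the rule selected on, and no spread was measured in Spo11-/-. Snrnp70, the U1 snRNP protein that recognises the start of introns, was at 10.58, 10.48, 10.25 and 9.78 in wild-type spermatogonia, 10.63, 11.03 and 10.04 in pre-leptotene and 10.31, 10.11 and 9.59 in leptotene/zygotene. Its Spo11-/- levels were 8.33, 8.04 and 7.93, the lowest of its 23 arrays. Unlike most of the genes it stayed high later, at 9.85 ± 0.17 (SD, n = 2) in diplotene and 9.61 ± 0.22 (n = 4) in round spermatids.

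U2af1, the splicing factor that reads the end of introns, differed by 1.07, 1.91 and 1.35, and Hnrnpul2, a nuclear RNA-binding protein, by 2.48, 3.45 and 3.01. Mex3d, an RNA-binding protein with a RING domain, was at 11.57 ± 0.57 in wild-type spermatogonia (n = 4), 10.89 ± 0.31 in pre-leptotene and 11.06 ± 0.26 in leptotene/zygotene (n = 3 each), against 8.93, 8.50 and 9.98 in Spo11-/-. Thumpd1, which assists tRNA acetylation, was close to the selection limit at 1.08, 1.95 and 0.97. Of 38 other splicing and nuclear RNA genes in a fixed list, 0 met the distance rule in all 3 fractions, against 3.72% of all genes. In a list of this size 0 is near that share, and nothing is read from it. The median Spo11-/- array minus wild-type mean of the 38 genes was 0.26, -0.06 and 0.19 in the 3 fractions.

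Transcription factors and cofactors made up 9 genes, with median differences of 2.34, 2.66 and 1.53. Zbtb12, a zinc finger gene, was at 6.78, 6.40, 4.92 and 6.62 in wild-type spermatogonia, 7.28, 6.61 and 6.96 in pre-leptotene and 6.25, 5.27 and 5.45 in leptotene/zygotene. Its Spo11-/- levels of 3.52, 3.11 and 2.94 were not above background, and neither was any wild-type array from early pachytene on (2.60 to 3.10). The forkhead genes Foxc2 and Foxf1, which lie 2 measured genes apart on chromosome 8, had differences of 3.09, 2.77 and 1.68 and of 3.03, 2.66 and 1.53. Both were not above background in Spo11-/- spermatogonia and pre-leptotene (3.10 and 3.07, 3.38 and 3.37) and measurable in leptotene/zygotene (5.18 and 5.30). Foxo4, another forkhead gene, differed by 1.35, 1.70 and 1.19. Srebf2, the switch gene of cholesterol synthesis, was at 8.23 to 9.39 in wild-type spermatogonia, 8.71 to 9.21 in pre-leptotene and 8.76 to 9.18 in leptotene/zygotene, against 6.33, 6.40 and 7.38. Tead2, a partner of the Hippo cofactor YAP, and Aff3, of the transcription elongation machinery, differed by 2.30, 3.11 and 0.94 and by 3.41, 3.55 and 1.71. Irx3 and Lmo2 were the dimmest of the genes, with early wild-type means of 5.07 and 5.19.

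Chromatin, nuclear structure and import counted 8 genes and had the smallest group medians in spermatogonia and pre-leptotene (1.42 and 1.86, with 1.46 in leptotene/zygotene). Fbxl19, which binds CpG islands, was at 8.32, 8.30, 7.69 and 8.76 in wild-type spermatogonia, 8.64, 8.68 and 8.45 in pre-leptotene and 8.50, 5.18 and 8.38 in leptotene/zygotene. Its Spo11-/- levels were 4.04, 3.80 and 4.20, and leptotene/zygotene array 2, at 5.18, was the only wild-type array below 6. The corepressor Rcor2 differed by 1.31, 3.09 and 1.69, the histone acetylation scaffold Jade1 by 1.82, 1.46 and 1.03 and the NuRD subunit Mta2 by 1.65, 1.28 and 1.55. Rcc1, which loads Ran with GTP on chromatin, and Tnpo3, which imports splicing factors, were among the steadiest in wild type, with SDs of 0.09 to 0.19 in the 3 early fractions. Their differences were 1.31, 2.02 and 1.12 and 0.96, 1.70 and 1.37. The lamin gene Lmnb1 was the gene nearest to the limit, with a smallest distance of 0.70, beside Thumpd1 and Lmo2 (0.72 each). Just outside lay Nlrp4f, Nap1l4 and Zic1 (0.68 each).

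Cell surface receptors and adhesion genes (9, Gfra1 among them) had the largest medians of the larger role groups in spermatogonia and pre-leptotene, at 2.44 and 2.73, with 1.77 in leptotene/zygotene. Sdc4, a heparan sulfate proteoglycan, was at 10.83, 9.65, 8.80 and 11.68 in wild-type spermatogonia, 11.24, 9.98 and 10.22 in pre-leptotene and 11.63, 10.80 and 11.02 in leptotene/zygotene, against 6.45, 8.77 and 9.0. It is the gene nearest to Spo11 among 5 members on chromosome 2, with 92 measured genes between their places in order. Ptk7, a co-receptor of Wnt signalling, differed by 2.44, 4.12 and 1.77, the glypican Gpc2 by 2.50, 4.04 and 3.02 and Dlk1, a Notch-related surface protein, by 2.18, 2.45 and 1.60. Of 47 genes of Wnt, Notch, Hedgehog and TGF-beta signalling in a fixed list, 0 met the distance rule in all 3 fractions, against 3.72% of all genes. In a list of this size 0 is near that share, and nothing is read from it. In the single fractions, taken in order, 3, 9 and 5 of the 47 met the distance, against 8.01%, 9.64% and 9.97% of all genes.

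Kinases, GTPases and nutrient signalling counted 12 genes, with medians of 1.84, 1.95 and 1.62. Cdk16, an X-linked kinase needed for sperm formation, was at 11.49, 10.76, 10.62 and 10.51 in wild-type spermatogonia, 11.75, 11.17 and 10.68 in pre-leptotene and 11.38, 10.68 and 10.43 in leptotene/zygotene. Its Spo11-/- levels were 8.94, 8.74 and 8.90, alike in the 3 fractions. Ppp3r1, the regulatory subunit of calcineurin, differed by 1.97, 1.73 and 1.97. Rhebl1, a GTPase that can activate mTORC1, was at 5.90, 5.26, 5.43 and 8.05, then 6.07, 5.33 and 6.30, then 7.06, 7.49 and 7.45 in wild type. In Spo11-/- it was at 3.55 and 3.16, not above background, and at 5.45. Lamtor2, which anchors mTORC1 at lysosomes, differed by 1.47, 1.43 and 1.43, and Ddit4, a stress gene that inhibits mTORC1, by 1.91, 1.96 and 2.95. Ddit4 was the only gene at least 1 lower in the Spo11-/- leptotene/zygotene array than in pre-leptotene (3.44 against 5.25).

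Protein turnover and folding (5 genes) included Rad23b, which carries ubiquitinated proteins to the proteasome and stabilises the DNA repair factor XPC. It was the brightest gene after Prm1, at 12.03 to 12.99 in the 10 early wild-type arrays and 11.24, 10.82 and 10.94 in Spo11-/-. Pfdn2, a prefoldin subunit, differed by 1.10, 1.96 and 1.68, and the atrophy ubiquitin ligase gene Fbxo32 by 3.79, 2.21 and 2.59. Membrane traffic and cytoskeleton (5 genes) included the kinesin-family gene Kif26a (2.47, 3.82 and 1.88), and metabolic enzymes (5) Ddah1, which breaks down methylated arginine (2.20, 3.26 and 1.77), and the aldehyde dehydrogenase Aldh2 (3.26, 1.41 and 2.10). Aunip, an Aurora A and DNA repair factor, was at 8.34, 8.72, 8.38 and 8.36 in wild-type spermatogonia, 8.54, 8.64 and 8.42 in pre-leptotene and 8.43, 8.19 and 7.84 in leptotene/zygotene, against 6.07, 5.80 and 5.97. After Prm1 it had the largest smallest distance, 1.87. The chloride channel family gene Clic6 had differences of 4.23, 4.56 and 2.06, and Pdap1, a gene of a PDGF-associated protein, 1.12, 1.76 and 1.45.

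**Figure D3:**
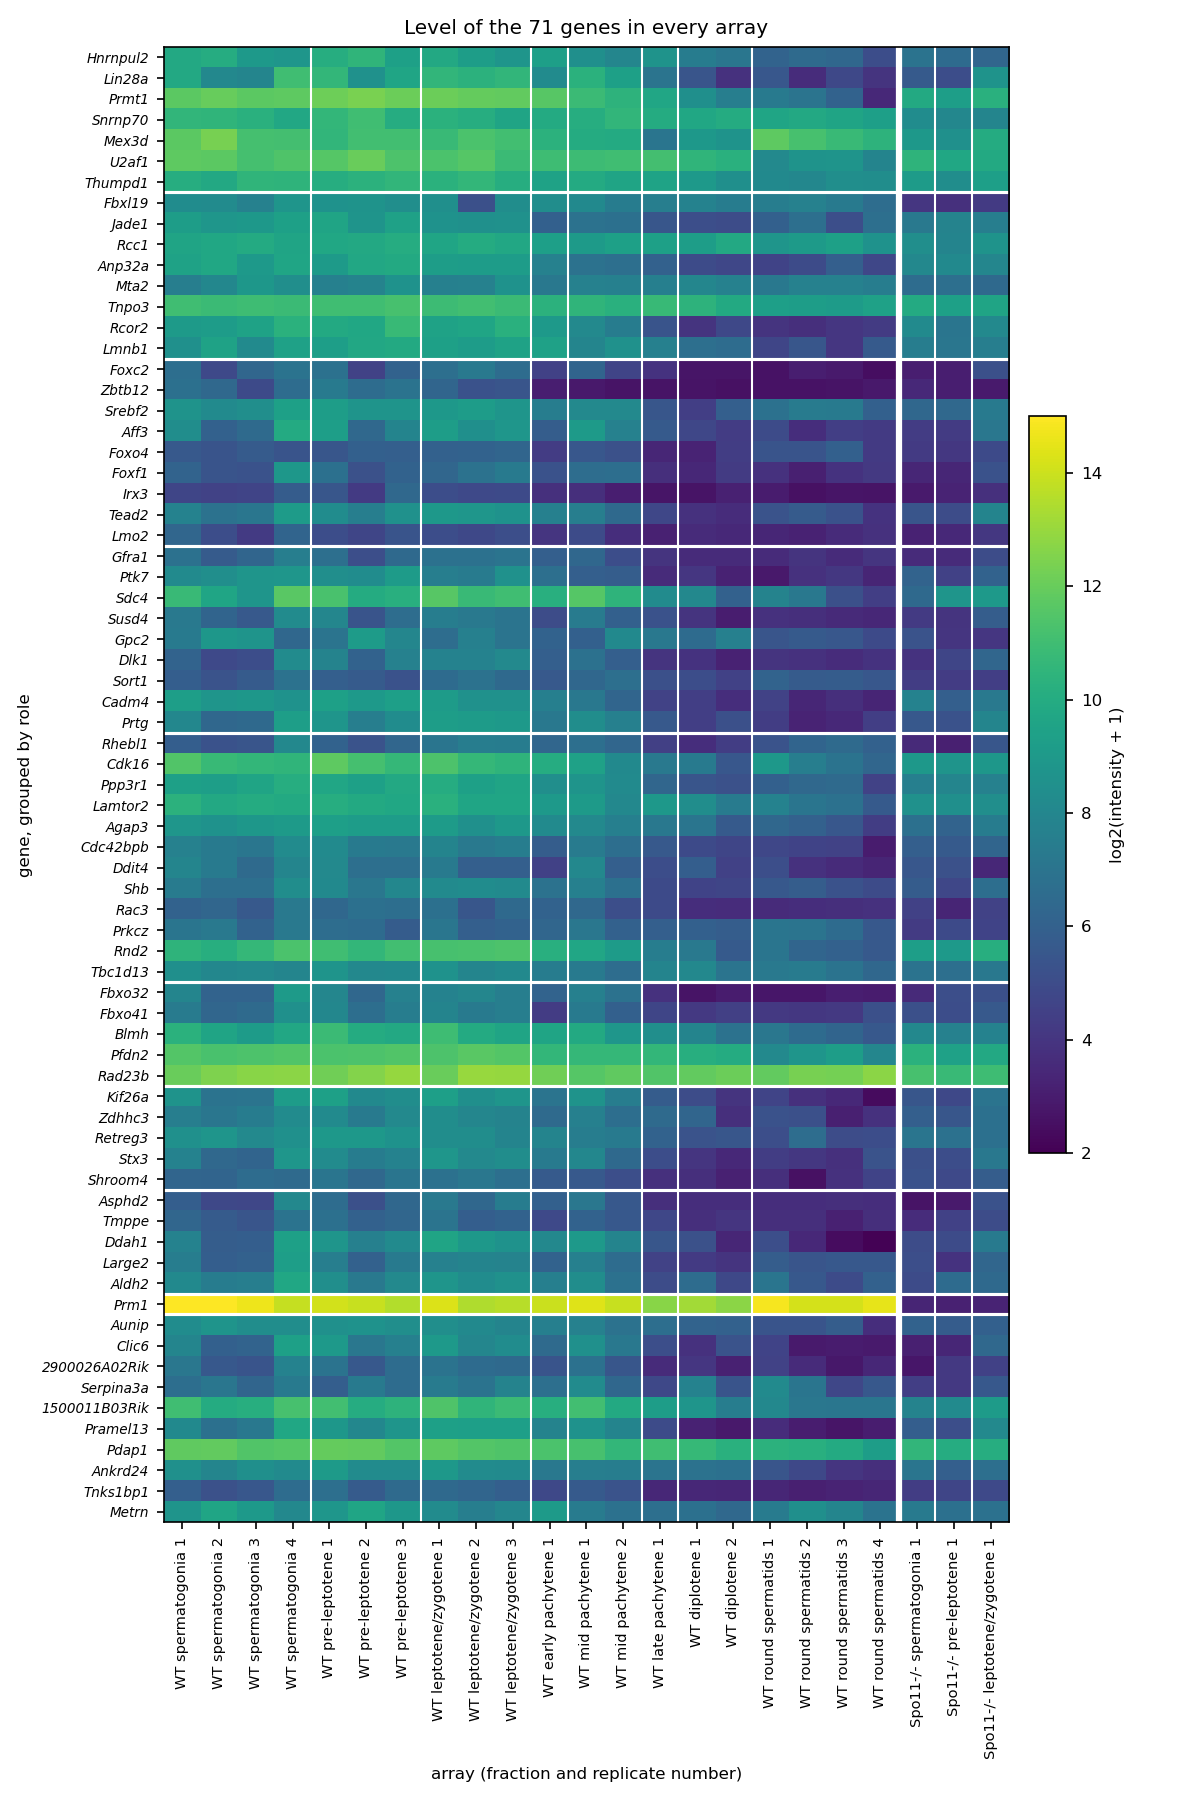
Colour gives log2(intensity + 1) of the 71 genes (rows, grouped by role) in the 23 arrays (columns, wild type left of the thick line, Spo11-/- right of it). The Spo11-/- columns are darker than the early wild-type columns, most rows darken from late pachytene on, and the row of Prm1 is bright in all wild-type arrays and dark in the 3 Spo11-/- arrays.

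Within the Spo11-/- arrays many of the genes were higher in leptotene/zygotene than in pre-leptotene. The level was at least 1 higher in 27 of 71 (38.0%), against 6.16% of all genes, and the median difference was 0.59, against 0.06 over all genes. Both Spo11-/- levels and the wild-type maximum entered the rule that chose the genes, so these values and those that follow are a description, and nothing is read from their distance to all genes. In 9 of the 27 the pre-leptotene level was not above background. The median was 1.48 for the 34 genes with a wild-type maximum in leptotene/zygotene (21 of them by at least 1), 0.17 for the 29 of pre-leptotene (5) and 0.03 for the 8 of spermatogonia (1). Among the 18 genes above background in both arrays the largest differences were those of Lin28a (3.58), Pramel13 (2.98), Aff3 (2.86), Tead2 (2.82) and the receptor-like gene Prtg (2.62). By role, a difference of at least 1 was seen in 6 of 9 surface genes, 3 of 5 genes each of membrane traffic and of metabolism, 4 of 9 transcription factors and 5 of 12 kinase and GTPase genes. It was seen in 2 of 7 RNA genes, 1 of 8 chromatin and nuclear genes, 0 of 5 protein turnover genes and 3 of the 10 without a group. In wild type the median of the same difference was 0.03. Each side rests on 1 array, the lower of them the one with T cell markers, and no test was possible. Sertoli cell markers were above wild type in both arrays.

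The wild-type replicates differed too. Spermatogonia array 4 was the highest of its fraction for 43 of the 71 genes (60.6%, against 27.1% of all genes) and arrays 2 and 3 the lowest for 31 and 24. Pre-leptotene array 2 was the lowest for 42 (59.2%, against 33.9%). The summed spermatogonial list was highest in the same spermatogonia array, 23289 against 8951 to 12253. Lin28a, Gfra1, Clic6, Aff3, Fbxo32 and Dlk1 had their highest spermatogonia value in array 4, and all 6 had their lowest pre-leptotene value in array 2, while Prmt1, Aunip, Rcc1 and Tnpo3 varied little. Leptotene/zygotene arrays were closer to each other for many of them, with an SD of 0.10 for Lin28a and 0.08 for Gfra1, against 1.48 and 0.79 in spermatogonia.

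After leptotene/zygotene the wild-type levels were lower in most of the genes, and lowest from late pachytene on. The median distance below a gene's own maximum was 1.12 in early pachytene, 0.88 in mid-pachytene, 2.72 in late pachytene, 2.99 in diplotene and 3.30 in round spermatids. In early pachytene, measured on 1 array, 46 of the 71 genes were at least 1 below their maximum and 25 within 1 of it. In mid-pachytene 31 were at least 1 below and 40 within 1, and the mid-pachytene mean of 57 lay above all 3 Spo11-/- arrays. In diplotene 9 genes were within 1 of their maximum, and in round spermatids 10. In 22 genes every later fraction mean was at least 1 below the maximum. The round spermatid mean was below all 3 Spo11-/- arrays in 42 genes and above all 3 in 14. Since the rule required an early maximum, a later decline is in part built into the choice.

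**Figure D4:**
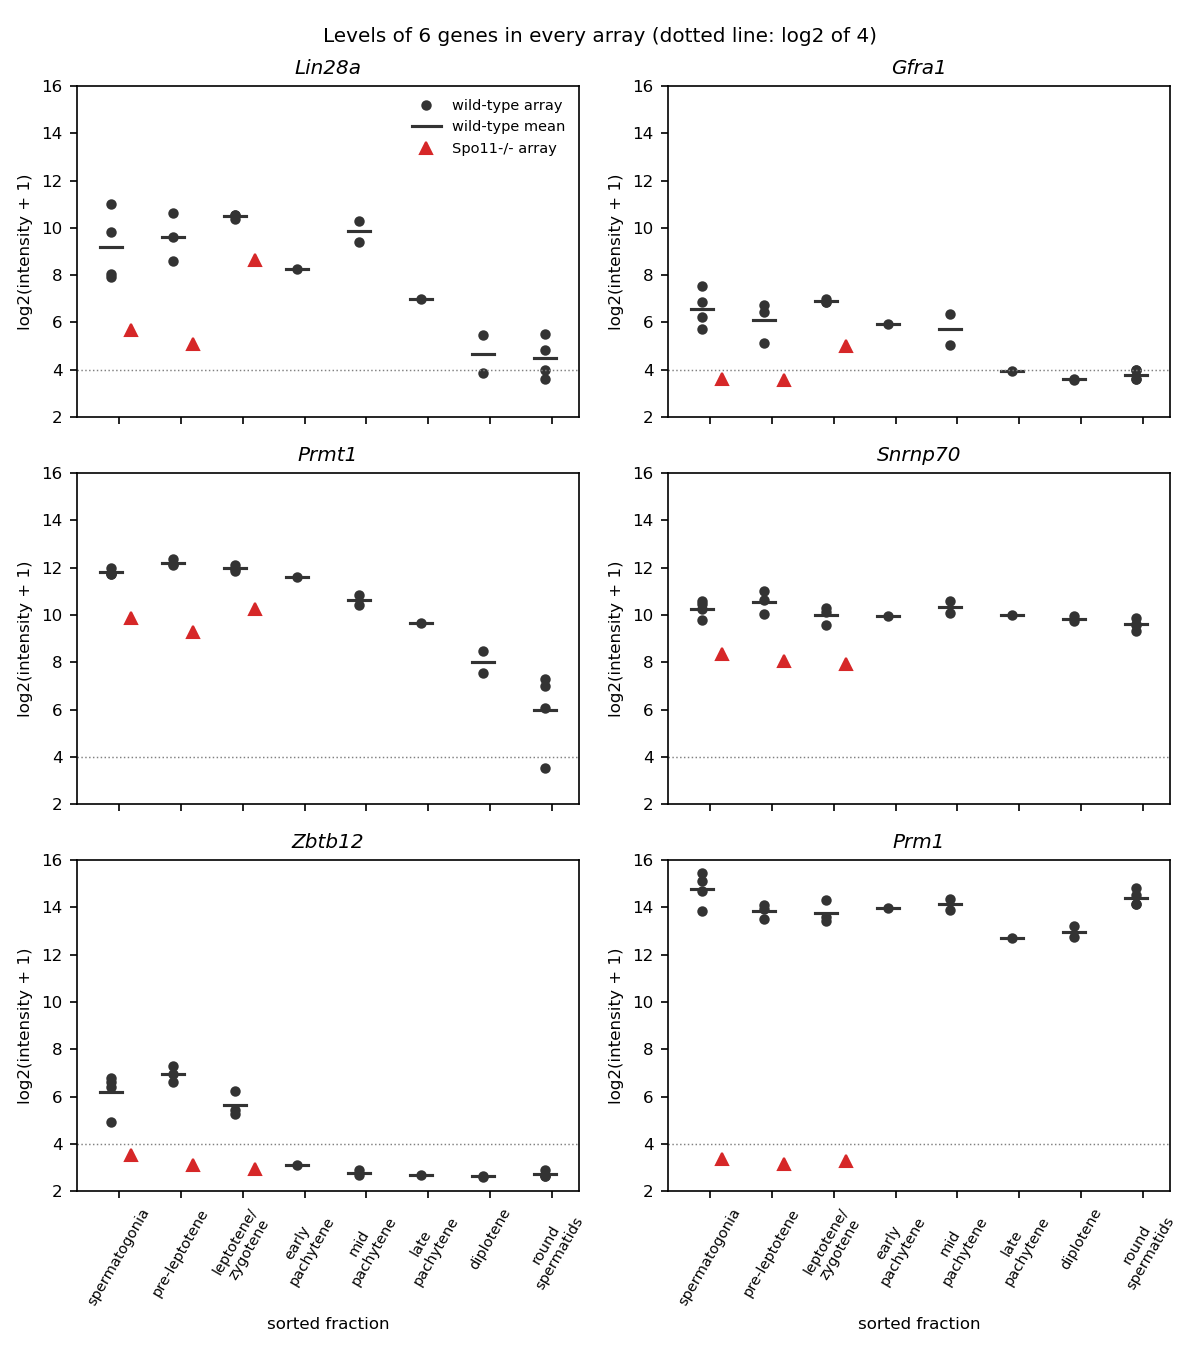
Levels, as log2(intensity + 1), of 6 genes in each array along the sorted fractions, with wild-type arrays as black points, their means as bars and Spo11-/- arrays as red triangles. Lin28a, Gfra1 and Prmt1 decline by diplotene, Snrnp70 stays between 9.34 and 11.03 in wild type, Zbtb12 is below 4 from early pachytene on, and Prm1 is at 12.70 or more in wild type and at 3.17 to 3.35 in Spo11-/-.

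Wild-type fractions were compared in 3 steps with limma over 13087 genes, all 71 among them, with p-values adjusted over all genes by Benjamini-Hochberg. These steps are not independent of the rule. It used the mean of every wild-type fraction, since the maximum had to be early, and the pre-leptotene and leptotene/zygotene arrays through the distance. The shares of genes called are therefore given beside those of all genes as a description. A change was called at an adjusted p below 0.05 and a size of at least 1. From pre-leptotene to leptotene/zygotene limma called 0 of the 71 genes in either direction, where 3.03% of all genes were higher and 0.0764% lower. An unadjusted p below 0.05 was reached by 4: Zbtb12 (-1.29 ± 0.39 SE, adjusted p = 0.0944), Metrn (-1.18 ± 0.41, 0.169), Sort1 (0.99 ± 0.34, 0.159) and Rhebl1 (1.43 ± 0.55, 0.236). In each the 3 arrays of a fraction did not overlap those of the other. The shares of all genes with such a p or without overlap were not counted, so nothing is read from these 4. The median change of 0.03 was close to the 0.02 of all genes.

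From mid-pachytene to diplotene 46 of the 71 genes fell (64.8%), against 14.5% of all genes. No member was higher (0 of 71), against 6.98% of all. Since the rule kept only genes with an early maximum, part of this difference is built into the choice. Among 5543 other genes with an early maximum and the same pre-leptotene condition, 31.9% fell. Those genes were not matched to the 71 on level, and genes near background have little room to fall. No excess beyond the choice is therefore read from 64.8% against 31.9%. The median change was -1.99 for the 71 genes and -0.01 over all genes. Of the 46 genes, 11 were not above background in both diplotene arrays and 15 in 1 of them. With the former taken at log2 4 the median of the 71 was -1.92. Lin28a went from 10.30 and 9.40 in the mid-pachytene arrays to 5.45 and 3.85 in diplotene, the latter not above background, a fall with no overlap (-5.20 ± 0.92 SE, limma adjusted p = 0.000913). Pramel13, of the PRAME-like germ cell family, went from 8.60 and 7.85 to 3.26 and 2.91, both not above background. It fell by at least 4.23 (adjusted p = 9.78e-05). Fbxo32 fell by at least 3.29, from 7.66 and 6.92 to 2.68 and 3.00 (0.000689). Ddah1 (-4.11 ± 1.08), with 1 of its 2 diplotene arrays above background, Sdc4 (-3.94 ± 1.05) and Aff3 (-3.84 ± 1.02) fell as well, with adjusted p of 0.0122, 0.0131 and 0.0133.

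Others in the same comparison were Gfra1, from 6.35 and 5.06 to 3.61 and 3.58 (a fall of at least 1.71, adjusted p = 0.0129), and Prmt1, from 10.85 and 10.41 to 8.50 and 7.55 (-2.61 ± 0.80, 0.0282). Of 20 tested genes of the spermatogonial list, both members included, 10 fell at this step. Among the 25 genes that did not pass were Snrnp70, Aunip (-1.24 ± 0.50, adjusted p = 0.0888), Mex3d (-1.17 ± 0.44, 0.0661), Ddit4 (-1.81 ± 0.78, 0.112) and Prm1 (-1.15 ± 0.45, 0.0778). The count rested on single arrays, being 15 without mid-pachytene array 1, 21 without diplotene array 2 and 40 without either of the others. The falls over all genes moved too, from 1899 to 905 without mid-pachytene array 1 and 934 without diplotene array 2. They were 1868 without mid-pachytene array 2 and 1843 without diplotene array 1. Fitted to the 4 arrays of both stages without the rest, limma called 0 of the 71 and 0 of all genes.

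From diplotene to round spermatids 6 of the 71 genes rose (8.45%, against 12.5% of all genes) and 6 fell (8.45%, against 12%). With 71 genes these shares are near those of all genes, and nothing is read from the difference. The rises were Mex3d (8.91 and 8.69 to 11.80, 11.23, 10.80 and 10.42, 2.26 ± 0.38 SE, limma adjusted p = 0.000421), Rhebl1 (1.97 ± 0.59), Srebf2 (1.72 ± 0.44), Prm1 (1.43 ± 0.39), Foxo4 (1.41 ± 0.39) and Jade1 (1.09 ± 0.38). The falls were Ankrd24 (-2.33 ± 0.40), Prmt1 (-2.05 ± 0.70), U2af1 (10.49 and 10.24 to 8.11, 8.66, 8.71 and 7.84, -2.04 ± 0.30, limma adjusted p = 0.000179), Lmnb1 (-1.67 ± 0.44), Pfdn2 (-1.54 ± 0.29) and Hnrnpul2 (-1.28 ± 0.46). Foxo4 was the only one of these with overlapping arrays. For Foxo4 and Rhebl1 only 1 of the 2 diplotene arrays was above background, so the size of these rises is uncertain. So is that of the falls of Prmt1 and Ankrd24, whose round spermatid array 4 was not above background (3.51 and 3.74). With quantile normalization the split was 7 rises and 4 falls. Without diplotene array 1 the call remained for 5 of the 12: Ankrd24, Mex3d, Pfdn2, Prm1 and U2af1. Calls over all genes then went from 3199 to 1691.

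**Figure D5:**
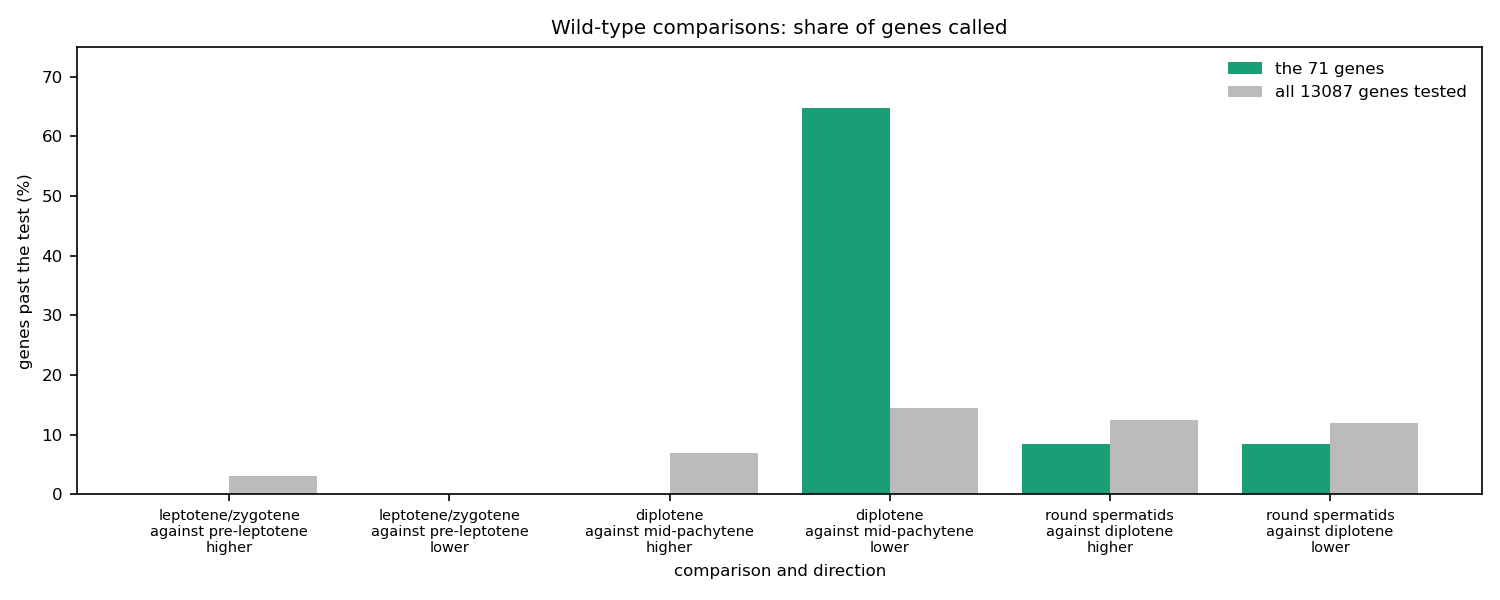
Share of genes past the limma test in each wild-type comparison and direction, green for the 71 genes and grey for all 13087 tested. The tall green bar is the fall from mid-pachytene to diplotene, 64.8% against 14.5%. The other green bars are below the grey ones, and nothing is read from that. The early maximum required of the 71 genes bears on every green bar.

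Prm1 went against the early label. It was at 15.13, 15.45, 14.68 and 13.86 in wild-type spermatogonia, 14.09, 13.93 and 13.52 in pre-leptotene and 14.31, 13.45 and 13.60 in leptotene/zygotene, and at 14.81, 14.15, 14.15 and 14.54 in round spermatids, where the gene is known to be transcribed. The Spo11-/- arrays gave 3.35, 3.17 and 3.29, not above background. It entered the list because its spermatogonia mean of 14.78 exceeded the round spermatid mean of 14.41. The difference between genotypes was at least 10.78, 9.84 and 9.79, taken against log2 4, and both other Prm1 probe sets met the distance rule in all 3 fractions.

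Other probe sets of the same genes often gave smaller differences. The rule took the brightest probe set, and 41 genes had further ones, 40 of which (28 genes) had an early wild-type mean of at least 4. Of these 40, 6 met the distance rule in all 3 fractions (Ankrd24, Cdk16, Sdc4 and Srebf2 with 1 each and Prm1 with 2), 27 were below the wild-type mean in all 3, and 19 met the distance in 0 fractions. Their median differences were 0.80, 0.90 and 0.77, where the chosen probe sets of the same genes had 1.96, 2.43 and 1.78. For Jade1, 2 of 3 other probe sets were above the wild-type mean in all 3 fractions, and for 1500011B03Rik so was the other one. For Cdk16 a further probe set with an early mean of 9.42 met the distance in 0 fractions. Another Snrnp70 probe set (early mean 8.62) met it in 1 fraction. For Tnpo3 another (9.34) met it in 0 and a further one (9.72) in 2. Prmt1 had 1 probe set, and the other probe sets of Lin28a and Gfra1 were at early wild-type means of 2.40 to 3.78.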

How the data were processed

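RNA of sorted testis cells had been labelled and hybridised to Affymetrix arrays, and the authors deposited 1 intensity per probe set and array on a linear scale, made with GCRMA per the submitters' processing notes, whose version is not given in the sources used here. The deposited intensity (45037 probe sets, 23 arrays) was analysed as log2(value + 1). Probe sets with 1 symbol (34945; 932 had several and 9160 none) were named by the platform annotation, updated through Entrez IDs (34741 matched RefSeq), and the one brightest on average in the 20 wild-type arrays stood for each of 18193 genes.

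Wild-type fractions were compared with limma 3.58.1 in R 4.3.3 (lmFit and eBayes over 20 arrays, genes at log2 4 or more in at least 2, Benjamini-Hochberg adjustment); the fit was tested on simulated data. Wild-type arrays are biological replicates per the labels, and their number limits the precision. The 71 genes and the gene lists were chosen with earlier results of these data known. The genes named by a fixed rule are the 12 with the highest early wild-type mean, the 12 with the largest smallest distance, the 3 nearest on each side of the limit, those in a list, and the 6 largest calls in each tested comparison and direction, without predicted names (Rik, Gm). Further genes, such as Zbtb12, Foxc2, Rcc1 and 1500011B03Rik, were named outside this rule for their role or for single values, after the values were seen. Alternatives covered the distance, probe set choice, normalization, pseudocount, filter, fit settings, a replicate block and leaving out each array. Sequences are RefSeq windows on GRCm38.p6.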

Additional observations from a re-analysis of the deposited data

Results flagged for a closer look

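Among 64 groups of 4 wild-type arrays looked at (spermatogonia and round spermatids for 32 named genes), 3 had an array far from the other 3 by Dixon's test, where chance gives about 1 in 20 groups. Prmt1 was at 11.98 in spermatogonia array 2 and at 11.73 to 11.76 in the others. Aunip was at 8.72 in the same array and at 8.34 to 8.38 in the others. Clic6 was at 4.60 in round spermatid array 1 and at 2.92 to 2.98 in the others. The causes were not tested.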

How the results depend on the processing

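The 71 genes became 120 with a distance of 0.5, 34 with 1.0 and 129 without the pre-leptotene condition. Quantile normalization gave 52 (49 shared) and median centring 62 (61 shared). Leaving out 1 array gave 72 to 131 genes. Leaving out a Spo11-/- array (an alternative added after the data were seen) gave 131 without spermatogonia, 105 without pre-leptotene and 110 without leptotene/zygotene. Leaving out a Spo11-/- array only removes 1 of the 3 distance conditions, so all 71 had to remain. From pre-leptotene to leptotene/zygotene the count of 0 became 4 with array weights (Metrn, Rhebl1, Sort1 and Zbtb12), where calls over all genes went from 407 to 748. It was 0 to 1 without each array in turn, the 1 being Zbtb12 without leptotene/zygotene array 1. From mid-pachytene to diplotene the count of 46 was 0 with the arrays of the 2 fractions alone, 15 to 40 without each array in turn and 41 to 46 under the other settings without a block. From diplotene to round spermatids the 12 calls were 5 to 12 without each array in turn and 8 to 13 otherwise. With the replicate number as a block (replicate block, 18 arrays) the 3 counts were 1 (Zbtb12 lower), 51 and 13. Calls over all genes were then 630, 3408 and 3627, against 407, 2812 and 3199 in the main fit. The replicate numbers were not taken to pair the samples. Same-numbered pre-leptotene and leptotene/zygotene deviations correlated at 0.59, 0.08 and 0.27, and the sample numbered 2 did not correlate best with its own number. Mid-pachytene and diplotene shared only 2 numbers (0.63 for both), as did diplotene and round spermatids (0.59 and 0.07), fewer than the 3 pairs asked for. Fewer arrays enter the fits on 2 fractions alone; the cause of the other shifts was not tested. Single Spo11-/- arrays limit all genotype differences, and levels near log2 4 limit the size of the falls.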
